A study of Mus musculus with 28 samples.

Results

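The comparison described here set the late arteriovenous fistula (AVF) of the mouse against the unoperated vein in bulk RNA sequencing. It took the 5 libraries labelled late AVF and the 7 labelled contralateral vein, 12 of the 28 samples of the series and 12 of its 25 bulk libraries, chosen by these labels and by no measured value. The mice were male and female C57BL/6. All mice of the study had a 5/6 nephrectomy, which reduces kidney mass, and then a fistula in which the cut jugular vein was joined end to side to the carotid artery. A late AVF is the fistula vein 21 days after that operation per the labels (3 females and 2 males), and a contralateral vein is the jugular vein of the other side of the neck (5 females and 2 males). The labels give neither the animals' ages, nor the day on which each contralateral vein was taken, nor which vein and fistula came from the same mouse, so a control vein is an unoperated vein of a mouse with reduced kidney mass, taken at an unstated day. Each library came from 1 vessel, and late AVFs are called 16, 17, 19, 23, and 24 and contralateral veins 27, 28, 31, 34, 35, 632, and 633 after their labels. The question was how the venous wall differs, gene by gene, from a vein never exposed to arterial flow once the acute phase after anastomosis has passed.

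A jugular vein has a thin wall. Endothelial cells (ECs) line the lumen, a few layers of smooth muscle cells (SMCs) carry actin and myosin filaments that hold its tone, and fibroblasts and fat surround it. When a vein is joined to an artery it receives pulsatile flow at higher pressure, and its wall thickens as matrix-producing cells deposit collagens, elastin, and matricellular proteins (matrix proteins that signal to cells) while leukocytes enter and later subside. SMCs that leave the contractile state lower the genes of their filament apparatus, whose transcription depends on serum response factor and its coactivator myocardin.

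Libraries held 20254173 to 29913427 counts in contralateral veins (median 24834241) and 27855449 to 36879746 in late AVFs (median 31176311), and values below are CPM, counts scaled to the same total in every library. In bulk tissue, fewer cells of a type and less RNA per cell cannot be told apart. The contralateral veins were the less complete libraries. Of the genes tested, 2.86% to 22.5% had 0 counts in a vein (most in veins 28, 31, 632, and 34), against 0.0789% to 0.237% in a late AVF. Libraries of the same group resembled each other less among veins (median Spearman correlation of a library with its group, 0.587 to 0.741) than among late AVFs (0.932 to 0.956). A set of late AVFs also held transcripts of neighbouring tissue. The summed CPM of the skeletal muscle genes was 9.90 to 45.4 in late AVFs 17 and 24 and 883, 1549.7, and 10579 in late AVFs 16, 19, and 23. Sympathetic neuron genes summed to 951 CPM in late AVF 16 and 442 in late AVF 24, and *Pth*, the parathyroid hormone gene, reached 5313 CPM in late AVF 19. DEG counts without these libraries are given for each list that had any, except the gene families looked up after the values were seen.

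Of 12673 genes tested, 676 (5.33%) differed between late AVFs and contralateral veins with an adjusted *p* below 0.01 and a log2 fold change of 1 or more in size, and these are called differentially expressed genes (DEGs). There were 315 DEGs higher in late AVFs (2.49% of genes tested) and 361 lower (2.85%). Counts of DEGs in the gene lists below are to be read against these shares. Every late AVF lay above every contralateral vein in 282 of the rises and below in 262 of the falls, where 6.25% of all tested genes had every late AVF above and 4.25% every late AVF below. The rises and the falls differed in how many veins held 0 counts. Among the 315 rises, 168 (53.3%) had 0 counts in 4 or more of the 7 veins and 22 had 0 in all of them, against 6.51% of all tested genes with 0 in 4 or more. Among the 361 falls, 360 were detected in every vein, which follows in part from their direction, since a gene needs counts in veins to fall. Many rises were thus steps from non-detection, and their fold changes are imprecise. Leaving out 1 library at a time gave 424 to 886 DEGs, and 364 DEGs (205 higher and 159 lower) kept their call in all 12 of these fits. The lowest counts came without late AVF 19 (424), late AVF 17 (438), and late AVF 24 (450). With contralateral veins 27, 35, and 633 only, in which under 10% of tested genes were at 0, there were 1083 DEGs, 443 of the 676 among them. Falls were also shorter transcripts, with a median length of 2733 bases against 3430 for all tested genes and 3469.5 for the rises. Among the 3151 genes with transcripts of at most 2200 bases the median log2 fold change was −0.39, and 4.54% were DEGs that fell. The part of transcript length in the falls was not tested.

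**Figure D1:**
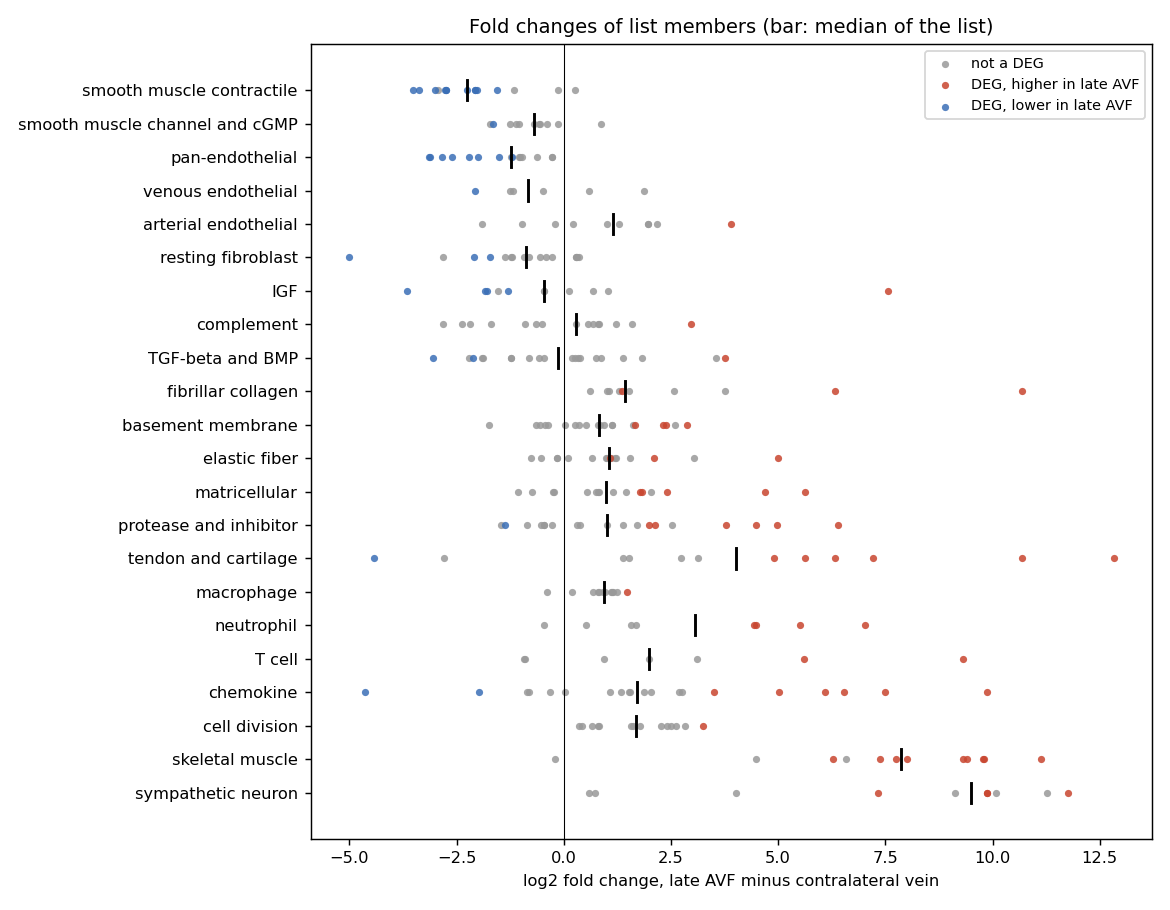
Log2 fold change of late AVFs against contralateral veins for the tested members of 22 gene lists, 1 point a gene, with the median of each list as a bar. SMC contractile and EC genes lie mostly below 0 and matrix and neutrophil genes mostly above, where the median of all 12673 genes is −0.09.

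SMC contractile genes were lower in late AVFs. Of 15 tested members, 11 fell and none rose, with a median log2 fold change of −2.27 where the median over all tested genes was −0.09. *Cnn1*, which encodes the actin- and calmodulin-binding protein calponin, measured 934 to 2649.97 CPM (median 1145) in veins and 128, 122, 119, 149, and 109 CPM in late AVFs (log2 fold change −3.52 with SE 0.33, adjusted *p* = 1.01e-07). *Actg2*, the gamma actin of smooth muscle, measured 823 to 2289 CPM (median 1044) in veins and 122, 107, 158, 105, and 98.9 CPM in late AVFs (log2 fold change −3.38 with SE 0.34, adjusted *p* = 2.23e-07). Both genes were over 5 times lower in the highest late AVF than in the lowest vein. *Myh11*, the smooth muscle myosin heavy chain that defines the lineage, measured 1347 to 3782 CPM (median 1986) in veins and 280.3, 283, 279.9, 338, and 284 CPM in late AVFs (log2 fold change −3.01 with SE 0.32, adjusted *p* = 5.42e-07). *Mylk*, the kinase that phosphorylates myosin light chain to start contraction, showed 911 to 1642 CPM (median 1076) in veins and 141, 144, 141, 247, and 207 CPM in late AVFs (log2 fold change −2.74 with SE 0.24, adjusted *p* = 3.21e-08). *Acta2*, the α-actin of vascular smooth muscle, stayed the most abundant of these 5 as CPM, at 6263 to 14276 CPM (median 7512) in veins and 2039.5, 1709.8, 2379.9, 2635, and 1927 CPM in late AVFs (log2 fold change −2.02 with SE 0.26, adjusted *p* = 6.63e-06). None of the 5 overlapped between groups, and each kept its call without any single library and with the 3 better detected veins. The other falls were *Tagln*, *Lmod1*, *Synpo2*, *Myl9*, *Tpm1*, and *Tpm2*, filament and filament-binding genes. Not every member fell. *Smtn*, which encodes smoothelin, measured 149 ± 63.4 CPM in veins and 136 ± 10.9 CPM in late AVFs (mean ± SD, n = 7 and 5; log2 fold change −0.14), and *Myocd*, the coactivator myocardin, 9.24 ± 13.4 CPM in veins and 11.03 ± 0.840 CPM in late AVFs (log2 fold change 0.25 with SE 0.85, adjusted *p* = 0.893) with 1 vein at 0. *Des* and *Casq2* also missed the threshold. Both are expressed in skeletal muscle as well, and the part of such transcripts in their values was not tested. The actin genes share long stretches of sequence, so reads may have been divided among *Acta2*, *Actg2*, and the skeletal *Acta1*. Summed CPM of the list was 18076 to 38688 CPM in contralateral veins (median 21764) and 3642 to 7042 CPM in late AVFs (median 4236). Without late AVFs 16, 19, and 23, which carried skeletal muscle transcripts, there were 9 DEGs in this list, and without late AVFs 16 and 24, which carried neuronal transcripts, there were 7.

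Among 11 tested genes of SMC ion channels and cyclic GMP signalling, 1 fell and none rose (median −0.69). *Gucy1a1*, a subunit of the nitric oxide receptor guanylate cyclase, measured 172 to 585 CPM (median 416) in veins and 134, 119.6, 89.3, 107, and 149 CPM in late AVFs (log2 fold change −1.64 with SE 0.37, adjusted *p* = 0.00438), with no overlap, and it missed the threshold when late AVF 17, 19, or 23 was left out (adjusted *p* = 0.0127 to 0.0177).

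The promoters of the contractile genes are shown because serum response factor binds the CArG box, CC followed by 6 bases of A or T and then GG, in them. RefSeq windows (GRCm38.p6) existed for 8 of the 11 contractile genes that fell. The 250 bases before the transcription start are printed 5′ to 3′ on the strand of the gene, with capitals on each CArG box found with at most 1 mismatch among its 6 inner bases, for the 2 genes that held one.
*Acta2* (chr19:34255374-34255623, minus strand): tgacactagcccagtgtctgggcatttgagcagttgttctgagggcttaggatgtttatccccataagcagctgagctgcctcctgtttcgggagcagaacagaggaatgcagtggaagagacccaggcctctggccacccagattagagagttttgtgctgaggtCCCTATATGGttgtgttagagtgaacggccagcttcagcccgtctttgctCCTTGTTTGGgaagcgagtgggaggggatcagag
*Myl9* (chr2:156775214-156775463, plus strand): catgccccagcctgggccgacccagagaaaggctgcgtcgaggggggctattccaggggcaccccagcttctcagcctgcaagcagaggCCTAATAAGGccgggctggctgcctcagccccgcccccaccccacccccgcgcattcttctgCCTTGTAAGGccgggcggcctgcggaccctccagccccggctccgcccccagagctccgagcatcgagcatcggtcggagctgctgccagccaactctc
The boxes of *Acta2* began 84 and 34 bases before the start and those of *Myl9* 161 and 99 bases before it. Only the more distant box of *Myl9* had no mismatch. Over windows of 250 bases before to 50 after the start, where a match on one strand is also a match on the other, a box with at most 1 mismatch was in 2 of 8 contractile genes that fell (25%), in 13.6% of the 279 falls with a window, in 9.36% of the 235 rises, and in 11.3% of all 27025 genes. A box with no mismatch was in 1.81% of all genes. These are matches of letters, and the windows do not reach farther upstream or into introns.

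Endothelial transcripts were also lower. Of 15 pan-endothelial genes, all tested, 8 fell and none rose, and all 15 log2 fold changes were negative (median −1.23). *Vwf*, von Willebrand factor, which tethers platelets, measured 785 to 1959 CPM (median 1368) in veins and 214, 249, 131, 121, and 255 CPM in late AVFs (log2 fold change −2.83 with SE 0.29, adjusted *p* = 4.67e-07). *Emcn*, the venous and capillary surface sialoprotein endomucin, measured 240.4 to 865 CPM (median 359.7) in veins and 53.0, 46.0, 46.1, 51.5, and 61.8 CPM in late AVFs (log2 fold change −3.11 with SE 0.36, adjusted *p* = 1.78e-06). *Ptprb*, the endothelial receptor phosphatase that dephosphorylates Tie2, measured 242 to 863 CPM (median 606) in veins and 125, 126, 107, 119, and 143 CPM in late AVFs (log2 fold change −2.21 with SE 0.29, adjusted *p* = 9.60e-06). *Cdh5*, the adherens junction protein VE-cadherin, showed 78.9 to 217 CPM (median 119) in veins and 23.5, 24.4, 29.7, 40.1, and 35.4 CPM in late AVFs (log2 fold change −2.01 with SE 0.37, adjusted *p* = 0.000722). In these 4 genes no late AVF reached the level of any vein, and the calls did not depend on any 1 library. *Flt1*, *Esam*, *Egfl7*, and *Plvap* fell too. *Pecam1*, the junctional protein CD31, measured 189 to 711 CPM (median 491) in veins and 249.7, 286, 229.7, 212, and 206 CPM in late AVFs and was not a DEG (log2 fold change −1.04 with SE 0.28, adjusted *p* = 0.0155), and contralateral vein 28, at 189 CPM, lay below all late AVFs. Without that vein it was a DEG (adjusted *p* = 0.00256). The list summed to 3859 to 7857 CPM in contralateral veins (median 4455) and 1166 to 1443 CPM in late AVFs (median 1401). Without late AVFs 16, 19, and 23 the list had 2 DEGs, and without late AVFs 16 and 24 it had 5, in fits with 2 and 3 late AVFs.

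Of the genes that mark arterial or venous identity, 1 of each list passed the test, and both lists held changes in both directions. Arterial genes had 7 positive and 3 negative log2 fold changes, and venous genes 2 positive and 4 negative. The arterial list summed to 90.9 to 312 CPM in veins (median 237) and 157 to 234 CPM in late AVFs (median 217). The venous list summed to 316 to 954 CPM in veins (median 615) and 284 to 377 CPM in late AVFs (median 337). *Nr2f2*, the transcription factor COUP-TFII that specifies veins, was the 1 fall among 6 venous genes (median −0.83), at 127 to 581 CPM (median 292) in veins and 66.1, 61.9, 63.0, 99.1, and 106 CPM in late AVFs (log2 fold change −2.06 with SE 0.31, adjusted *p* = 7.94e-05). It did not overlap between groups and kept its call without any single library. *Unc5b*, a netrin receptor of arterial and sprouting ECs, was the 1 rise among 10 arterial genes (median 1.15), at 0 to 10.1 CPM (median 0.482) in veins and 21.8, 24.9, 28.6, 35.0, and 38.0 CPM in late AVFs (log2 fold change 3.89 with SE 0.86, adjusted *p* = 0.00353). The arterial list held 3 DEGs without vein 633 and 2 without vein 27 or 34. Among 13 genes of flow response and endothelin signalling, *Klf2* was the 1 DEG (median −0.67), where 4 passed without vein 31, 3 without vein 632, and 2 without vein 35. *Klf2* encodes a transcription factor that laminar shear induces in ECs, and it measured 92.8 to 163 CPM (median 137) in veins and 16.5, 17.6, 38.2, 47.2, and 35.8 CPM in late AVFs (log2 fold change −2.06 with SE 0.42, adjusted *p* = 0.00155). The adhesion molecule *Vcam1* (178 ± 100.3 CPM in veins and 314 ± 91.9 CPM in late AVFs, mean ± SD; log2 fold change 0.82) and *Ccn2*, connective tissue growth factor (966 ± 776 CPM in veins and 1719 ± 286 CPM in late AVFs; log2 fold change 0.83), did not pass the test.

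**Figure D2:**
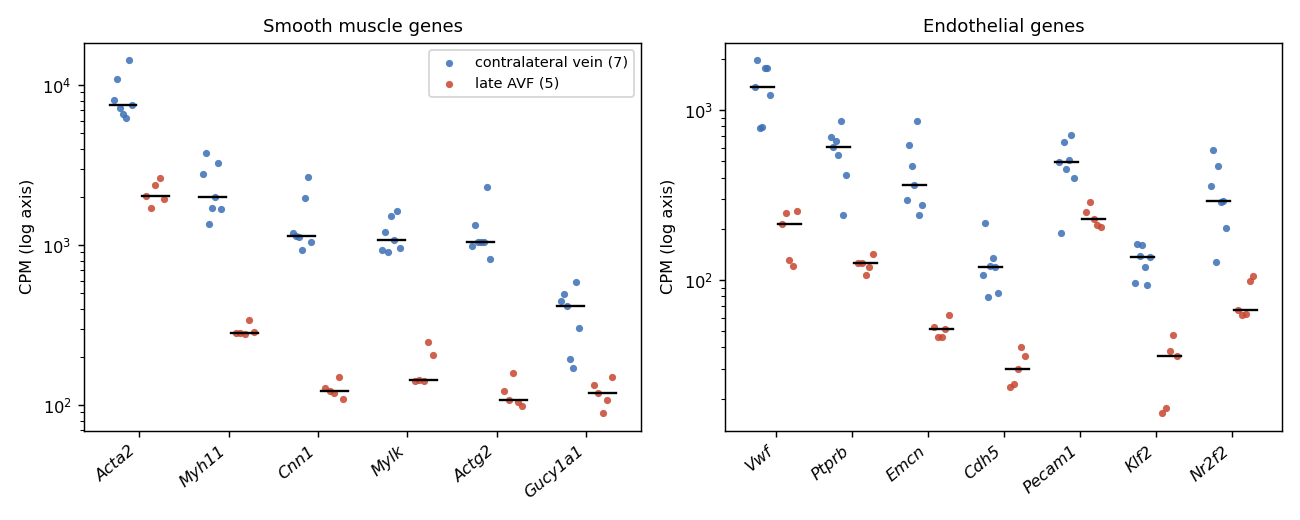
CPM of SMC (left) and EC (right) genes in each contralateral vein and each late AVF, 1 point a library on a log axis, with the group median as a bar. *Cnn1*, *Myh11*, *Vwf*, and *Emcn* are separated between groups, while *Pecam1* overlaps through 1 vein.

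Genes of resting fibroblasts were mostly not called. Of 16 tested, 3 fell and none rose (median −0.87). *Inmt*, an indolethylamine methyltransferase found in adventitial fibroblasts, measured 223 to 897 CPM (median 659) in veins and 16.8, 18.9, 27.4, 12.5, and 16.5 CPM in late AVFs (log2 fold change −5.01 with SE 0.63, adjusted *p* = 4.64e-06). *Gsn*, the actin-severing protein gelsolin, measured 5649 to 13231 CPM (median 9819.97) in veins and 3754, 4079, 2967, 2254, and 1728 CPM in late AVFs (log2 fold change −1.71 with SE 0.27, adjusted *p* = 0.00013). *Fmo2*, a flavin monooxygenase, measured 463 to 1044 CPM (median 756) in veins and 209, 222, 106, 162, and 149.6 CPM in late AVFs (log2 fold change −2.10 with SE 0.32, adjusted *p* = 6.66e-05). The groups were separate for all 3. *Dcn*, the collagen-binding proteoglycan decorin, measured 11343 ± 2744 CPM in veins and 4950.04 ± 879 CPM in late AVFs (mean ± SD, n = 7 and 5) without overlap but missed the threshold (log2 fold change −1.20 with SE 0.36, adjusted *p* = 0.0284). *Pdgfra*, the receptor that marks fibroblasts, measured 128 ± 53.5 CPM in veins and 156 ± 29.2 CPM in late AVFs (log2 fold change 0.29 with SE 0.32, adjusted *p* = 0.643), and the progenitor marker *Pi16* 219 ± 100 CPM in veins and 282 ± 136 CPM in late AVFs (log2 fold change 0.36).

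The 12 largest falls of the comparison included *Inmt* and 11 other genes. *Amigo2*, which encodes an adhesion protein with leucine-rich repeats, measured 123 to 572 CPM (median 299.7) in veins and 12.5, 6.60, 8.82, 11.6, and 10.2 CPM in late AVFs (log2 fold change −5.10 with SE 0.45, adjusted *p* = 4.05e-08). *Adh1*, an alcohol and retinol dehydrogenase, measured 93.8 to 357 CPM (median 211) in veins and 20.001, 16.7, 17.3, 10.9, and 6.65 CPM in late AVFs (log2 fold change −3.94 with SE 0.79, adjusted *p* = 0.00146). *Cytl1*, a secreted cytokine-like protein, measured 584 to 2642 CPM (median 994) in veins and 73.1, 59.9, 46.7, 74.8, and 34.1 CPM in late AVFs (log2 fold change −4.42 with SE 0.61, adjusted *p* = 1.93e-05). *Cd209d* and *Cd209f*, lectins of tissue macrophages and dendritic cells, had means of 131 ± 86.0 and 296 ± 162 CPM in veins and 2.78 ± 1.40 and 19.2 ± 1.64 in late AVFs (log2 fold changes −5.56 and −3.95, adjusted *p* = 0.000558 and 8.63e-06). Members of the Cd209 family are close copies, so their reads may have been divided. *Cxcl13*, the chemokine that draws B cells to follicles, measured 32.8 to 349 CPM (median 133) in veins and 2.87, 11.9, 2.60, 10.8, and 2.77 CPM in late AVFs (log2 fold change −4.64 with SE 1.06, adjusted *p* = 0.00454), a call lost when late AVF 16, 19, or 24 was left out (adjusted *p* = 0.0156 to 0.0174). *BC051019* (−7.86, the lowest log2 fold change of the 12), *H2-M9* (−4.16, a nonclassical class I gene with close copies), *Ntm* (−4.69, a neural adhesion protein), *Gm11627* (−3.98), and *Retn* (−4.49, the adipocyte hormone resistin) completed the set. *Ntm* missed the threshold when late AVF 19 or 24 was left out (adjusted *p* = 0.0116 to 0.0121), and *Gm11627* when contralateral vein 28 or any single late AVF was left out (adjusted *p* = 0.0127 to 0.0198). *Gm11627* was at 182 CPM in vein 28 against 11.3 to 41.9 CPM in the other veins. All 12 were lower in every late AVF than in every vein, a condition of the rule that named them.

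Matrix genes that passed the test mostly rose, but the most abundant fibrillar collagens did not pass it. Among 10 fibrillar collagen genes 3 rose and none fell (median 1.44), and all 10 log2 fold changes were positive. *Col1a1* and *Col3a1*, the chains of the main tension-bearing fibrils, were not DEGs. *Col1a1* measured 441 to 4358 CPM (median 2205) in veins and 6748, 11694, 5328, 3117, and 4498 CPM in late AVFs (log2 fold change 1.28 with SE 0.53, adjusted *p* = 0.124), and *Col3a1* 2865 to 14695 CPM (median 10555) in veins and 22201, 32964, 17945, 14271, and 14786 CPM in late AVFs (log2 fold change 1.06 with SE 0.47, adjusted *p* = 0.152). *Col1a1* overlapped between groups, and for *Col3a1* late AVF 23 lay below vein 633. *Col5a2*, a chain of the collagen that nucleates fibrils, measured 217 to 655 CPM (median 507) in veins and 969, 1329, 1178, 1097, and 999 CPM in late AVFs (log2 fold change 1.36 with SE 0.32, adjusted *p* = 0.006) without overlap, but the call was lost when contralateral vein 28, 31, or 35 or any single late AVF was left out (adjusted *p* = 0.0104 to 0.0173). *Col11a1* and *Col2a1*, chains typical of cartilage, were at or near 0 in veins and are described with the cartilage genes.

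Basement membrane genes had 4 rises and no fall among 20 tested (median 0.81). *Col4a1* and *Col4a2* encode the paired chains of collagen IV, the sheet under ECs and around SMCs. *Col4a1* measured 145 to 323 CPM (median 219) in veins and 1038, 1274, 1277, 1049.7, and 1169 CPM in late AVFs (log2 fold change 2.30 with SE 0.24, adjusted *p* = 5.75e-07), and *Col4a2* 5.78 to 203 CPM (median 141) in veins and 407, 527, 622, 603, and 604 CPM in late AVFs (log2 fold change 2.39 with SE 0.49, adjusted *p* = 0.00196). *Col4a1* was over 3-fold higher in each late AVF than in each vein, while *Col4a2* varied more among veins, with 5.78 CPM in vein 31 and 20.6 in vein 28. *Hspg2*, the heparan sulfate proteoglycan perlecan, measured 19.0 to 102 CPM (median 82.3) in veins and 227, 288, 180.1, 175, and 169 CPM in late AVFs (log2 fold change 1.67 with SE 0.32, adjusted *p* = 0.00109), and *Col18a1* was the other rise (53.8 ± 52.0 CPM in veins and 398 ± 46.9 CPM in late AVFs, mean ± SD; log2 fold change 2.89 with SE 0.71, adjusted *p* = 0.00755). No laminin or nidogen gene was a DEG. Without any single library *Col4a1*, *Col4a2*, and *Hspg2* kept their calls.

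Of 9 other interstitial collagens 2 rose and none fell (median 1.12). *Col8a1*, a short-chain collagen that ECs and SMCs of remodeling vessels make, measured 0 to 29.5 CPM (median 0.394) in veins and 470.3, 628, 757, 597, and 572 CPM in late AVFs (log2 fold change 6.55 with SE 1.08, adjusted *p* = 0.000191). With the 3 better detected veins, where vein 27 held 29.5 CPM, its log2 fold change was 5.37. *Col12a1*, a fibril-associated collagen of tension-loaded tissue, measured 0.562 to 110.02 CPM (median 15.0) in veins and 214, 338, 479, 286, and 326 CPM in late AVFs (log2 fold change 3.41 with SE 0.85, adjusted *p* = 0.00884), and it missed the threshold when contralateral vein 35, 632, or 633 or any single late AVF was left out (adjusted *p* = 0.0102 to 0.0223).

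Elastic fiber genes had 3 rises and no fall among 16 (median 1.05). *Eln*, the elastin core protein, measured 132 to 1137 CPM (median 589) in veins and 2642, 3065, 2348, 2708, and 2717 CPM in late AVFs (log2 fold change 2.11 with SE 0.45, adjusted *p* = 0.00242). *Ltbp2*, a fibrillin-binding protein of elastic fibers, measured 0 to 36.6 CPM (median 9.41) in veins and 311, 467, 415, 349.98, and 399 CPM in late AVFs (log2 fold change 5.00 with SE 0.83, adjusted *p* = 0.000214). *Fbln2*, fibulin 2, measured 221 to 692 CPM (median 410.3) in veins and 943, 1330, 821, 468, and 639 CPM in late AVFs (log2 fold change 1.07 with SE 0.27, adjusted *p* = 0.0093), overlapping between groups and losing the call when contralateral vein 28, 31, 34, 632, or 633 or late AVF 16, 17, 19, or 24 was left out (adjusted *p* = 0.0105 to 0.0525). Collagen processing and cross-linking genes had 3 rises and 1 fall among 17 (median 0.55). *Lox*, the lysyl oxidase that cross-links collagen and elastin, measured 19.0 to 321 CPM (median 156) in veins and 512, 632, 632, 499, and 728 CPM in late AVFs (log2 fold change 1.90 with SE 0.44, adjusted *p* = 0.00475), and its call was lost when contralateral vein 35 or late AVF 16, 19, or 24 was left out (adjusted *p* = 0.0107 to 0.0127). *P4ha3*, a collagen prolyl hydroxylase subunit, measured 0 to 2.72 CPM (median 0.0876) in veins and 57.6, 32.4, 63.6, 66.3, and 57.6 CPM in late AVFs (log2 fold change 6.86 with SE 1.01, adjusted *p* = 4.62e-05). *Loxl1* rose (180.2 ± 81.4 CPM in veins and 408 ± 30.3 CPM in late AVFs, mean ± SD; log2 fold change 1.18 with SE 0.28, adjusted *p* = 0.00552) and *Pcolce2*, an enhancer of procollagen cleavage, fell from 317 ± 113 to 93.0 ± 14.9 CPM (log2 fold change −1.77 with SE 0.35, adjusted *p* = 0.00128). The collagen processing list held 2 DEGs without vein 35 or without late AVF 16, 19, or 24.

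**Figure D3:**
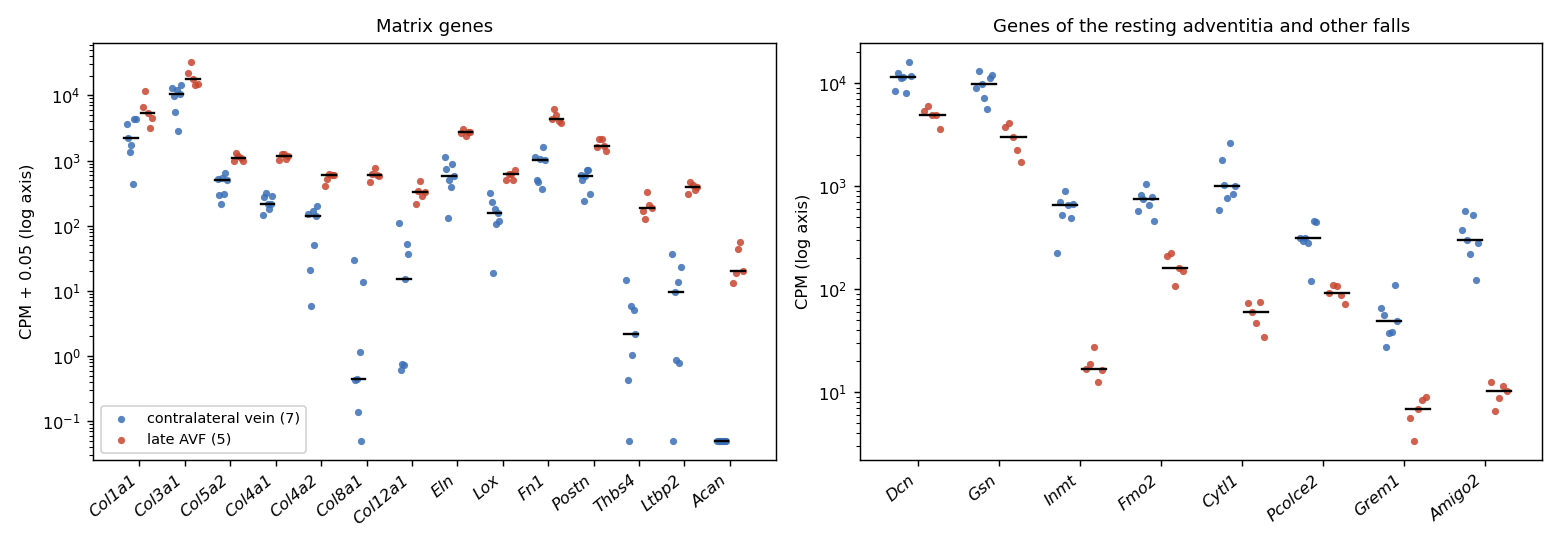
CPM plus 0.05 of matrix genes (left) and CPM of genes that fell or missed the threshold (right) in each contralateral vein and late AVF on a log axis, 1 point a library, with the group median as a bar. *Col4a1*, *Eln*, *Fn1*, and *Col8a1* are separated between groups, while *Col1a1* overlaps.

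Matricellular genes had 5 rises and no fall among 16 (median 0.99). *Fn1*, fibronectin, on which collagen fibrils assemble, measured 363 to 1599 CPM (median 1022) in veins and 4275, 6230.1, 4940.1, 3992, and 3761 CPM in late AVFs (log2 fold change 2.41 with SE 0.30, adjusted *p* = 4.22e-06). *Spp1*, osteopontin, measured 0.196 to 81.5 CPM (median 20.8) in veins and 627, 952, 455, 506, and 608 CPM in late AVFs (log2 fold change 4.70 with SE 0.85, adjusted *p* = 0.000517). *Thbs4*, a thrombospondin of tendon and loaded tissue, measured 0 to 14.6 CPM (median 2.14) in veins and 170.2, 125, 335, 211, and 185 CPM in late AVFs (log2 fold change 5.63 with SE 0.91, adjusted *p* = 0.000163). The 3 genes were higher in every late AVF and kept their calls without any single library. In limma voom with sample weights, the matricellular list held 1 DEG. *Postn*, periostin, which activated fibroblasts secrete, measured 237 to 718 CPM (median 581) in veins and 1624, 2164, 2129.7, 1675, and 1385 CPM in late AVFs (log2 fold change 1.78 with SE 0.45, adjusted *p* = 0.00999) and lay just inside the threshold, so that the call was lost when any single contralateral vein or any single late AVF was left out (adjusted *p* = 0.0103 to 0.026). *Tnc*, tenascin C, rose with overlap (92.7 ± 61.8 CPM in veins and 326 ± 119.7 CPM in late AVFs, mean ± SD; log2 fold change 1.81 with SE 0.44, adjusted *p* = 0.00706). Leaving out any of contralateral veins 34, 632, and 633 or late AVFs 16, 17, and 19 gave 3 matricellular DEGs in place of 5.

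Among 10 small leucine-rich proteoglycans, which regulate fibril width, 2 rose and none fell, with 6 negative log2 fold changes (median −0.52). *Bgn*, biglycan, measured 916 to 2572 CPM (median 1601) in veins and 3026, 4011, 3541, 3581, and 3743 CPM in late AVFs (log2 fold change 1.13 with SE 0.27, adjusted *p* = 0.00675), and *Prelp* 23.9 to 325 CPM (median 157) in veins and 505, 855, 683, 689, and 641 CPM in late AVFs (log2 fold change 1.97 with SE 0.47, adjusted *p* = 0.00568). Neither overlapped, yet *Bgn* lost its call when contralateral vein 31, 34, or 35 or any single late AVF was left out (adjusted *p* = 0.0122 to 0.0238), and *Prelp* when contralateral vein 31 or 35 or any single late AVF was left out (adjusted *p* = 0.0107 to 0.017). No gene of the hyaluronan and versican list passed among 8 tested (median 1.65), where *Cd44*, the hyaluronan receptor, measured 0.875 to 174 CPM (median 97.4) in veins and 323, 371, 411, 340.2, and 375 CPM in late AVFs (log2 fold change 1.84 with SE 0.50, adjusted *p* = 0.0146). Every late AVF exceeded every vein for *Cd44*, and without vein 28, at 0.875 CPM, its adjusted *p* was 1.36e-05.

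Genes typical of tendon and cartilage had 6 rises and 1 fall among 12 tested (median 4.02), the rises from low levels. *Acan*, the large proteoglycan aggrecan, had 0 counts in all 7 veins and 12.9, 18.9, 44.0, 55.3, and 20.2 CPM in late AVFs, at least 1688-fold higher when 3 counts over the veins are taken as the floor (adjusted *p* = 8.63e-06). *Col2a1* likewise had 0 counts in all veins and 2.67, 1.46, 18.04, 6.32, and 5.78 CPM in late AVFs, at least 368-fold higher (adjusted *p* = 0.00136). *Col11a1* measured 0 to 1.59 CPM (median 0.0876) in veins and 14.6, 43.5, 34.6, 29.6, and 38.3 CPM in late AVFs (log2 fold change 6.33 with SE 1.20, adjusted *p* = 0.000824). The highest value of *Acan*, *Col2a1*, and *Col11a1* in any library was 55.3 CPM, so their folds are bounds or imprecise. *Comp*, *Tnmd*, and *Thbs4* were the other rises and *Cytl1* the fall, while *Sox9* and *Runx2*, the transcription factors of cartilage and bone, were not called. The summed CPM of the list did not separate the groups (738 to 2837 CPM in contralateral veins (median 1044) and 803 to 1265 CPM in late AVFs (median 943)), since *Cytl1* made up most of it in veins.

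Proteases and their inhibitors had 6 rises and 1 fall among 19 (median 1.00). *Mmp12*, the macrophage elastase, measured 0 to 25.3 CPM (median 0.482) in veins and 473, 444, 449, 134, and 298 CPM in late AVFs (log2 fold change 6.40 with SE 1.03, adjusted *p* = 0.000156). *Timp1*, an inhibitor of metalloproteinases, measured 20.7 to 97.4 CPM (median 49.1) in veins and 187, 274, 223, 189.9, and 271 CPM in late AVFs (log2 fold change 2.12 with SE 0.41, adjusted *p* = 0.000917). *Mmp14*, the membrane-bound collagenase of fibroblasts, measured 5.56 to 179 CPM (median 78.0) in veins and 350.1, 253, 406, 390.1, and 319.8 CPM in late AVFs (log2 fold change 1.99 with SE 0.43, adjusted *p* = 0.00304). None of the 3 overlapped. *Mmp8*, *Mmp13*, and *Adam12* rose and *Timp2* fell (1433 ± 747 CPM in veins and 557 ± 156 CPM in late AVFs, mean ± SD; log2 fold change −1.36 with SE 0.30, adjusted *p* = 0.00308). Without late AVF 16 there were 3 DEGs in this list and without late AVF 17 or 19 there were 4.

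Some leukocyte genes rose and most missed the threshold. Of 12 general macrophage genes, only *Lyz2*, the lysozyme of macrophages and neutrophils, was a DEG (median 0.95), at 1231 to 5379 CPM (median 3044) in veins and 9734, 11856, 8953, 5867, and 5206 CPM in late AVFs (log2 fold change 1.47 with SE 0.30, adjusted *p* = 0.00197), and late AVF 24 lay below vein 31. *Adgre1*, the macrophage antigen F4/80, measured 61.1 to 193 CPM (median 110.03) in veins and 319.7, 413, 246, 166, and 174 CPM in late AVFs (log2 fold change 1.13 with SE 0.30, adjusted *p* = 0.0123). It passed the threshold when contralateral vein 34 or 632 was left out (adjusted *p* = 0.00518 to 0.00913). The macrophage list held 3 DEGs without vein 632 and 2 without vein 34. *Ptprc*, the leukocyte antigen CD45, measured 0.687 to 349 CPM (median 100.3) in veins and 214, 237, 177, 245, and 247 CPM in late AVFs (log2 fold change 0.80 with SE 0.56, adjusted *p* = 0.404). With the 3 better detected veins the *Ptprc* difference was 1.48 (adjusted *p* = 0.000121). No member of the 8 resident macrophage genes passed (median −0.29).

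Osteopontin and lipid-handling macrophage genes had 4 rises and 1 fall among 12 (median 0.78). Besides *Spp1* and *Mmp12*, *Trem2*, a lipid-sensing receptor of macrophages, rose, at 0 to 6.52 CPM (median 0.548) in veins and 39.1, 58.1, 48.5, 28.1, and 31.4 CPM in late AVFs (log2 fold change 4.85 with SE 0.83, adjusted *p* = 0.000286). *Lgals3*, galectin 3, rose from 123 ± 53.1 to 400.1 ± 125 CPM (mean ± SD; log2 fold change 1.70 with SE 0.43, adjusted *p* = 0.00911). *Cd36*, a fatty acid transporter that adipocytes and capillary ECs also carry, fell, at 599 to 1883 CPM (median 1288) in veins and 323, 342, 279, 237, and 182 CPM in late AVFs (log2 fold change −2.09 with SE 0.30, adjusted *p* = 2.87e-05). Neutrophil genes had 4 rises among 8 (median 3.06). *Csf3r*, the receptor for granulocyte colony-stimulating factor, measured 0.0392 to 2.67 CPM (median 0.125) in veins and 39.8, 64.2, 31.7, 19.6, and 33.5 CPM in late AVFs (log2 fold change 5.51 with SE 0.73, adjusted *p* = 9.86e-06), and *Cxcr2*, a receptor for neutrophil-attracting chemokines, 0 to 1.72 CPM (median 0) in veins and 7.25, 11.4, 6.96, 6.40, and 5.66 CPM in late AVFs (log2 fold change 4.43 with SE 0.96, adjusted *p* = 0.00297). *Ngp*, a granule protein, had 2 counts over the 7 veins and 4.21, 2.16, 2.40, 0.0547, and 1.11 CPM in late AVFs, a pooled ratio of 171-fold (95% counting interval 46.9 to 1415) with overlap, and *Mmp8* was the other rise. *S100a8*, with 16.5 ± 20.1 CPM in veins and 53.3 ± 22.4 CPM in late AVFs (mean ± SD), was not called (log2 fold change 1.69 with SE 0.93, adjusted *p* = 0.269).

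T cell genes had 2 rises among 7 (median 1.98). *Cd4*, the coreceptor of helper T cells, had 2 counts over the 7 veins and 12.4, 11.2, 9.35, 10.1, and 8.41 CPM in late AVFs, a pooled ratio of 879-fold (95% counting interval 243 to 7262), with an adjusted *p* of 5.29e-06. *Cd3g*, a T cell receptor subunit, measured 0 to 1.31 CPM (median 0) in veins and 11.5, 7.30, 6.79, 20.3, and 12.4 CPM in late AVFs (log2 fold change 5.59 with SE 1.34, adjusted *p* = 0.00641), a call lost when contralateral vein 27, 28, or 35 or any single late AVF was left out (adjusted *p* = 0.0101 to 0.0152). None of 6 B and plasma cell genes passed (median −0.39), and *Ighm*, an immunoglobulin heavy chain, was at 2835 CPM in vein 28 and at most 537 CPM in the other libraries of both groups. None of 9 MHC class II and dendritic cell genes passed (median 1.07). The most abundant, *Cd74*, the class II invariant chain, measured 312 to 1730.3 CPM (median 805) in veins and 3585, 2976, 2911, 2060.3, and 1948 CPM in late AVFs (log2 fold change 1.61 with SE 0.46, adjusted *p* = 0.0229), higher in every late AVF, and passed when contralateral vein 31 was left out (adjusted *p* = 0.0095). *Rgs1*, a regulator of chemokine receptor signalling in lymphocytes and among the 12 largest rises, had 2 counts over the veins and 18.1, 48.0, 20.5, 15.2, and 13.6 CPM in late AVFs, a pooled ratio of 1901-fold (95% counting interval 526 to 15701).

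**Figure D4:**
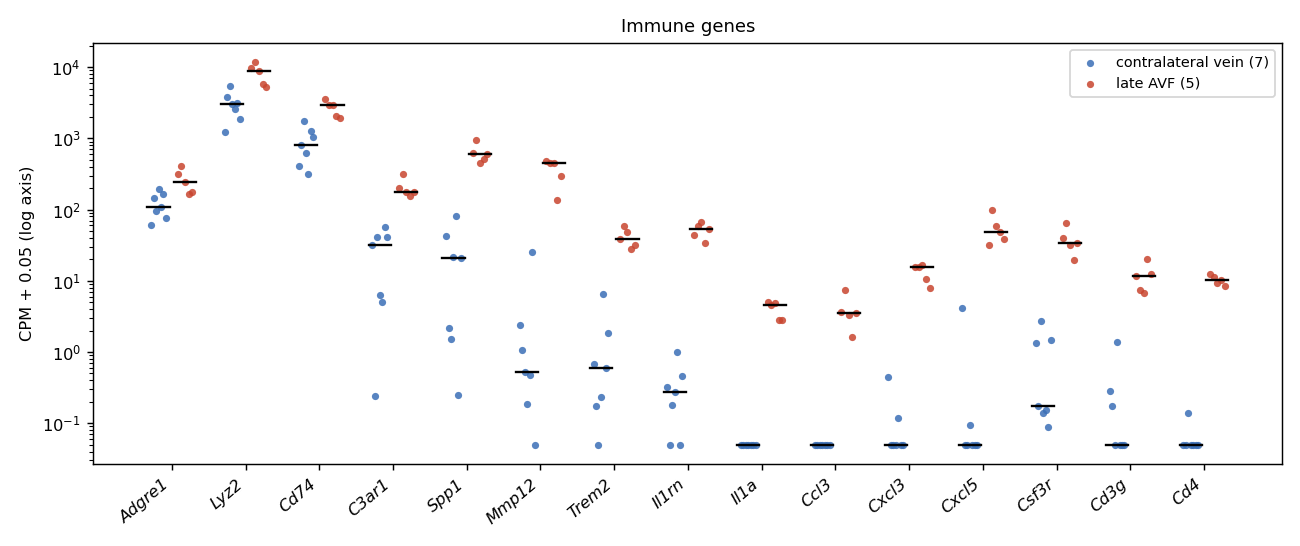
CPM plus 0.05 of leukocyte, chemokine, and cytokine genes in each contralateral vein and late AVF on a log axis, 1 point a library, with the group median as a bar. *Ccl3*, *Il1a*, and *Cd4* are at or near 0 in veins and detected in every late AVF.

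Chemokine genes had 6 rises and 2 falls among 20 (median 1.71). *Ccl3*, which attracts monocytes, had 0 counts in all veins and 3.58, 7.33, 3.23, 1.59, and 3.53 CPM in late AVFs, at least 213-fold higher (adjusted *p* = 1.78e-06). The neutrophil chemokines *Cxcl3* and *Cxcl5* measured 0 to 0.395 CPM (median 0) and 0 to 4.03 CPM (median 0) in veins and 15.3, 15.8, 16.6, 10.5, and 7.76 CPM and 31.5, 99.6, 58.4, 48.8, and 38.2 CPM in late AVFs (log2 fold changes 7.49 and 6.54, adjusted *p* = 1.66e-05 and 0.000268). Without vein 27, which held 4.03 CPM, the log2 fold change of *Cxcl5* was 12.29. *Cxcl1*, *Cxcl2*, and *Cx3cr1*, the fractalkine receptor of monocytes, rose as well, and *Cxcl13* and the eosinophil chemokine *Ccl11* fell. Interleukin and tumor necrosis factor genes had 3 rises and 1 fall among 12 (median 1.08). *Il1rn*, the antagonist of the interleukin 1 receptor, measured 0 to 0.946 CPM (median 0.227) in veins and 43.8, 59.5, 66.7, 33.7, and 53.1 CPM in late AVFs (log2 fold change 7.42 with SE 0.66, adjusted *p* = 4.05e-08). *Il1a*, interleukin 1α, had 0 counts in all veins and 5.04, 4.57, 4.79, 2.79, and 2.74 CPM in late AVFs, at least 224-fold higher (adjusted *p* = 1.77e-06). *Tnf* rose at low counts (0.117 ± 0.311 CPM in veins and 2.74 ± 0.689 CPM in late AVFs, mean ± SD; log2 fold change 4.47 with SE 1.12, adjusted *p* = 0.00911). *Il1r2*, the interleukin 1 decoy receptor, measured 16.7 to 209.6 CPM (median 47.7) in veins and 14.4, 18.3, 13.0, 12.3, and 7.91 CPM in late AVFs (log2 fold change −2.54 with SE 0.61, adjusted *p* = 0.00652), overlapping, and was lost when contralateral vein 28 or 633 or any single late AVF was left out (adjusted *p* = 0.0103 to 0.0262). *Il1b* (7.43 ± 16.1 CPM in veins and 43.7 ± 5.37 CPM in late AVFs; log2 fold change 2.56 with SE 1.06, adjusted *p* = 0.124) and *Il6* (1.56 ± 3.68 CPM in veins and 4.43 ± 1.22 CPM in late AVFs; log2 fold change 1.51 with SE 1.27, adjusted *p* = 0.506) were not DEGs. The interleukin and TNF list held 2 DEGs without vein 28 or 633 or without any 1 late AVF.

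The complement list had 1 rise and no fall among 15 (median 0.29). *C3ar1*, the receptor for the C3a fragment, measured 0.187 to 56.4 CPM (median 32.2) in veins and 198, 314, 174, 156, and 174 CPM in late AVFs (log2 fold change 2.96 with SE 0.61, adjusted *p* = 0.00203). The list held 2 DEGs without vein 31, 35, or 632. No interferon-stimulated gene passed among 10 (median 0.36). *Ifit3*, the most abundant of them, measured 87.7 ± 79.7 CPM in veins and 82.3 ± 28.5 CPM in late AVFs (mean ± SD; log2 fold change −0.09 with SE 0.64, adjusted *p* = 0.952), and the sign of its difference turned in other fits.

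TGF-β and BMP genes had 1 rise and 2 falls among 20 (median −0.14). The ligand *Tgfb1* measured 0 to 0.999 CPM (median 0.237) in veins and 4.11, 3.81, 3.46, 5.80, and 6.07 CPM in late AVFs (log2 fold change 3.75 with SE 0.85, adjusted *p* = 0.00404), low counts whose call was lost when late AVF 24 was left out (adjusted *p* = 0.0105). *Grem1*, a secreted BMP antagonist, measured 27.7 to 110.4 CPM (median 48.7) in veins and 5.64, 3.36, 6.79, 8.40, and 8.90 CPM in late AVFs (log2 fold change −3.05 with SE 0.51, adjusted *p* = 0.000238), lower in every late AVF. The ligand *Bmp4* fell as well (97.1 ± 59.1 CPM in veins and 22.3 ± 6.19 CPM in late AVFs, mean ± SD; log2 fold change −2.12 with SE 0.49, adjusted *p* = 0.00468). The TGF-β and BMP list held 5 DEGs without vein 35. Of 15 Wnt genes, 2 rose and none fell (median 0.78), and both encode secreted antagonists that bind Wnt ligands. *Frzb* measured 0 to 0.0876 CPM (median 0) in veins and 62.8, 82.3, 29.2, 89.5, and 109 CPM in late AVFs (log2 fold change 11.38 with SE 0.82, adjusted *p* = 1.86e-09), and *Wif1* 0 to 0.158 CPM (median 0) in veins and 17.1, 19.7, 9.39, 6.65, and 18.9 CPM in late AVFs (log2 fold change 9.03 with SE 1.06, adjusted *p* = 2.02e-06). Both calls held without any single library and with the 3 better detected veins. Both were lost in limma voom with sample weights, which gave every vein a lower weight than any late AVF (adjusted *p* = 0.264 for *Frzb* and 0.155 for *Wif1*).

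Insulin-like growth factor (IGF) genes had 1 rise and 4 falls among 11 (median −0.46). *Pappa*, a protease that cleaves IGF-binding proteins and frees IGF, measured 0 to 0.237 CPM (median 0) in veins and 7.88, 9.20, 13.9, 8.56, and 14.7 CPM in late AVFs (log2 fold change 7.57 with SE 0.93, adjusted *p* = 3.51e-06). The binding proteins *Igfbp3* and *Igfbp7* measured 52.5 to 266 CPM (median 84.0) and 592 to 2929 CPM (median 1667) in veins and 27.4, 27.8, 44.99, 55.8, and 21.3 CPM and 243, 233, 445, 748, and 571 CPM in late AVFs (log2 fold changes −1.84 and −1.78, adjusted *p* = 0.00363 and 0.00448), both with overlap. *Igfbp3* was lost when late AVF 16, 17, or 24 was left out (adjusted *p* = 0.0111 to 0.0168), and *Igfbp7* when contralateral vein 28 or late AVF 16, 17, or 19 was left out (adjusted *p* = 0.0103 to 0.022). *Igfbp5* and *Pappa2* were the other falls. The list counted 1 DEG without late AVF 16 or 17, 2 without 19 or 24, and 3 without late AVF 23 or vein 27, 28, or 632. None of 21 PDGF, FGF, and VEGF genes passed (median 0.26), where *Pdgfrb*, the receptor of mural cells, measured 172 ± 129 CPM in veins and 341 ± 61.6 CPM in late AVFs (mean ± SD; log2 fold change 0.99 with SE 0.55, adjusted *p* = 0.278).

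Lists with 1 DEG among 12 to 15 tested genes were near the 5.33% of all tested genes that were DEGs. Such lists are those with 1 DEG in this paragraph and the flow, macrophage, complement, and Schwann cell lists. *Serpine2*, protease nexin 1, was the 1 rise among 12 coagulation and fibrinolysis genes (median 0.25), at 25.8 to 293 CPM (median 66.9) in veins and 665, 776, 1014, 695, and 737 CPM in late AVFs (log2 fold change 2.51 with SE 0.50, adjusted *p* = 0.00135). *Birc5*, survivin, was the 1 rise among 14 cell division genes (median 1.69), at 0.0392 to 8.11 CPM (median 0.725) in veins and 12.5, 11.04, 19.4, 16.3, and 18.8 CPM in late AVFs (log2 fold change 3.24 with SE 0.76, adjusted *p* = 0.00552), and it was lost when contralateral vein 34 or 35 or late AVF 19, 23, or 24 was left out (adjusted *p* = 0.0108 to 0.0137). *Mki67* did not pass the test (log2 fold change 2.40 with SE 0.95, adjusted *p* = 0.106), and all 14 log2 fold changes of the list were positive. Without vein 27 the list held 3 DEGs, and without vein 28 or 632 it held 2. *Pfkp*, a phosphofructokinase, was the 1 fall among 13 glycolysis and hypoxia genes (median −0.09), at 234 to 593 CPM (median 484) in veins and 212, 157, 144, 144, and 156 CPM in late AVFs (log2 fold change −1.51 with SE 0.23, adjusted *p* = 8.35e-05). *Sod1*, the cytosolic superoxide dismutase, was the 1 fall among 15 oxidative stress genes (median −0.76; 256 ± 152 CPM in veins and 73.7 ± 8.14 CPM in late AVFs, mean ± SD; log2 fold change −1.79 with SE 0.45, adjusted *p* = 0.00937), with overlap, and was lost when contralateral vein 28, 31, 34, or 35 or any single late AVF was left out (adjusted *p* = 0.0126 to 0.034). None of 10 immediate early genes passed (median −0.01), and *Fos* measured 0 to 1040.2 CPM (median 86.8) in veins and 88.3, 339.7, 189, 119, and 109 CPM in late AVFs (log2 fold change −0.50 with SE 0.93, adjusted *p* = 0.795).

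Transcripts of other tissues moved with some late AVFs. Skeletal muscle genes had 9 rises and no fall among 12 (median 7.87). *Ckm*, muscle creatine kinase, measured 0 to 0.105 CPM (median 0.0392) in veins and 46.6, 0.159, 68.8, 451, and 0.759 CPM in late AVFs (log2 fold change 11.13 with SE 2.08, adjusted *p* = 0.000722), and *Myoz1*, a protein of the sarcomeric Z disc, had 3 counts over the veins and 23.6, 0.381, 39.1, 243, and 0.992 CPM in late AVFs, a pooled ratio of 3621-fold (95% counting interval 1239 to 17559). Late AVF 17 was near the vein levels for both genes and late AVF 23 was the highest. Muscle genes made up 5 of the 12 largest rises and neuronal genes 4, and the other 3 were *Acan*, *Frzb*, and *Rgs1*. *Xirp2*, *Klhl41*, and *Mybpc1*, further muscle genes among the 12 largest rises, were also highest in late AVF 23 (182, 66.3, and 182 CPM), and *Atp2a1* and *Mylpf* (1047 and 453 CPM there) overlapped with veins. The list had 3 DEGs without late AVF 23 and 0 without late AVFs 16, 19, and 23 or with the 3 better detected veins. Sympathetic neuron genes had 4 rises among 10 (median 9.50, or 9.45 with *Npy* at its bound). The neuropeptide *Npy* had 0 counts in all veins and 45.3, 2.03, 1.36, 0.383, and 22.1 CPM in late AVFs, at least 877-fold higher, and *Gal*, galanin, had 2 counts over the veins and 50.6, 1.08, 2.23, 1.86, and 20.2 CPM in late AVFs, a pooled ratio of 1412-fold (95% counting interval 391 to 11668). *Gap43*, a growth cone protein, measured 0 to 1.31 CPM (median 0) in veins and 98.2, 9.43, 12.8, 5.28, and 38.8 CPM in late AVFs (log2 fold change 7.32 with SE 1.58, adjusted *p* = 0.00275) and was lost without late AVF 16 (adjusted *p* = 0.0108). Without vein 633, which held 1.31 CPM, its log2 fold change was 11.52. *Prph* and *Syt4*, a neuronal filament and a vesicle protein among the 12 largest rises, followed the same 2 libraries, with 110.5 and 70.0 CPM in late AVF 16 and 49.1 and 34.9 CPM in late AVF 24 against at most 5.89 CPM in the others. *Prph* was lost when any library but late AVF 23 was left out (adjusted *p* = 0.0105 to 0.0257). The neuron list had 2 DEGs without late AVF 16, 1 without late AVFs 16 and 24, and 0 with the 3 better detected veins. How much of the muscle and nerve signal came with the dissected vessel was not tested.

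**Figure D5:**
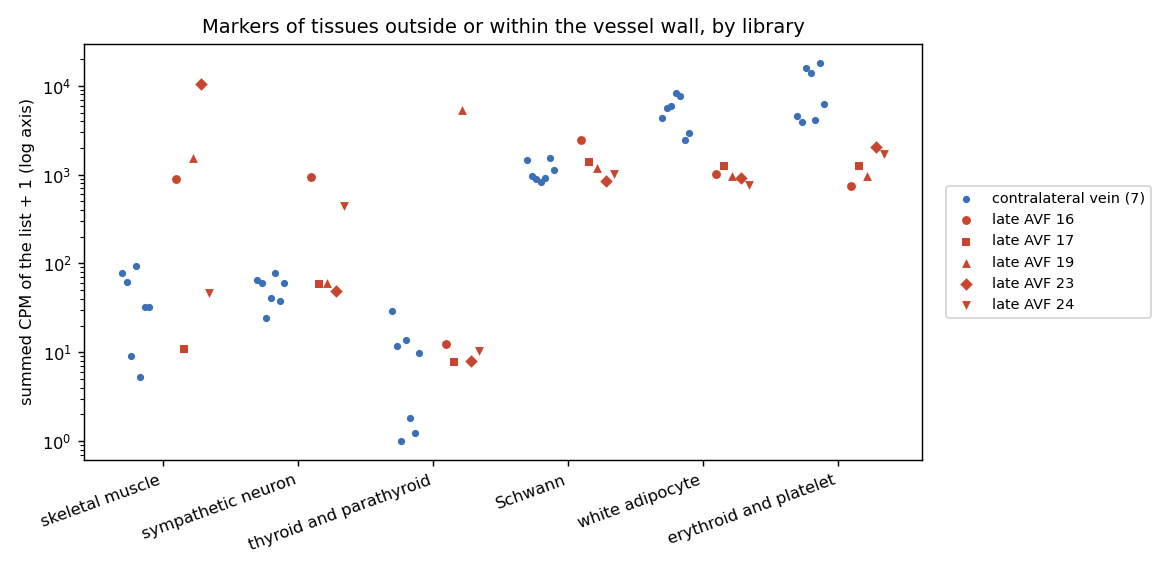
Summed CPM plus 1 of skeletal muscle, sympathetic neuron, Schwann cell, thyroid and parathyroid, adipocyte, and erythroid genes in each contralateral vein and late AVF on a log axis, 1 point a library. Late AVFs 16, 19, and 23 stand apart for muscle (883 to 10579 CPM), late AVFs 16 and 24 for neurons (951 and 442 CPM), and late AVF 19 for parathyroid (5385 CPM).

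*Mag*, a myelin glycoprotein, was the 1 rise among 12 Schwann cell genes (median 1.15), at 0 to 0.931 CPM (median 0) in veins and 15.5, 7.55, 5.82, 3.39, and 2.77 CPM in late AVFs (log2 fold change 5.07 with SE 1.09, adjusted *p* = 0.00258), and was lost without late AVF 16 (adjusted *p* = 0.0103). None of 3 thyroid and parathyroid genes passed (median 9.23, or 8.38 with the gene absent from veins at its bound). Without late AVF 19 the log2 fold change of *Pth* was −1.57 in place of 9.23. White adipocyte genes had 2 falls among 8, all with negative log2 fold changes (median −2.29). *Fabp4*, the fatty acid-binding protein of adipocytes and capillary ECs, measured 1359 to 4242 CPM (median 2977) in veins and 295, 369.8, 293, 279, and 242 CPM in late AVFs (log2 fold change −3.28 with SE 0.60, adjusted *p* = 0.000648), and *Retn* 191 to 1255 CPM (median 446) in veins and 23.8, 30.1, 24.3, 36.9, and 18.2 CPM in late AVFs (log2 fold change −4.49 with SE 0.88, adjusted *p* = 0.00113). *Adipoq*, adiponectin, had no overlap either but missed the threshold (712 ± 418 CPM in veins and 100.3 ± 37.3 CPM in late AVFs, mean ± SD; log2 fold change −2.83 with SE 0.94, adjusted *p* = 0.0513). The adipocyte list summed to 2453 to 8267 CPM in contralateral veins (median 5614) and 759.9 to 1246 CPM in late AVFs (median 959). None of 5 brown adipocyte genes passed (median 0.71), and *Cox7a1*, the muscle and brown fat isoform of a cytochrome oxidase subunit, was highest in late AVF 23 at 65.9 CPM. None of 5 epithelial genes passed (median −1.09), where *Krt18* was at 112 CPM in vein 27 and at most 1.59 CPM in the other veins.

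Erythroid genes had 5 falls among 11 erythroid and platelet genes (median −3.25). *Hbb-bs* and *Hbb-bt*, near-identical β-globin genes whose reads may have been divided, measured 888 to 6107 CPM (median 1709.95) and 195 to 1259.6 CPM (median 456) in veins and 108, 241, 139.5, 414, and 252 CPM and 35.3, 78.5, 39.9, 126, and 78.6 CPM in late AVFs (log2 fold changes −3.74 and −3.33, adjusted *p* = 0.00091 and 0.00145). *Alas2*, the erythroid heme synthesis enzyme, measured 32.1 to 317 CPM (median 142) in veins and 16.7, 38.1, 18.2, 39.3, and 28.7 CPM in late AVFs (log2 fold change −2.56 with SE 0.52, adjusted *p* = 0.00179). *Hba-a1* and *Hba-a2* were the other falls. The 5 genes are made by red cell precursors, and with the 3 better detected veins none of the list was a DEG.

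The number of DEGs in the lists moved with the libraries in the fit. Without late AVFs 16, 19, and 23, which held muscle transcripts, 146 of the 676 DEGs remained (115 rises and 31 falls) in a fit with 2 late AVFs. Without late AVFs 16 and 24, which held neuronal transcripts, 255 remained (173 rises and 82 falls) in a fit with 3. The matrix lists held fewer DEGs in both fits. Fibrillar collagen genes had 1 DEG in the fit with 2 late AVFs and 2 in the fit with 3, basement membrane genes 1 and 3, and elastic fiber, collagen processing, and other interstitial collagen genes 1 and 1. Matricellular genes had 3 and 3, tendon and cartilage genes 4 and 5, and small leucine-rich proteoglycans 0 and 0. Proteases and their inhibitors had 1 and 2, against 7 with all libraries, 3 without late AVF 16 alone, and 4 without late AVF 17 or 19. The matricellular list held 3 DEGs when vein 34, 632, or 633 or late AVF 16, 17, or 19 alone was left out.

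Most leukocyte and signaling lists also held fewer DEGs in these fits, while *Frzb* and *Wif1* of the Wnt list kept their calls in both. Chemokine genes had 4 DEGs in the fit with 2 late AVFs and 5 in the fit with 3, interleukin and TNF genes 2 and 2, neutrophil genes 1 and 2, T cell genes 1 and 1, and osteopontin and lipid-handling macrophage genes 3 and 4. IGF genes had 1 and 1, and TGF-β and BMP genes 0 and 1. Resting fibroblast genes had 1 and 3, and white adipocyte and erythroid genes had none in either fit. Skeletal muscle genes had 0 and 7, and sympathetic neuron genes 2 and 1. Of the lists with 1 DEG, the venous, macrophage, coagulation, and glycolysis lists had 0 and 1, and the arterial, flow, SMC channel, cell division, complement, oxidative stress, and Schwann cell lists had none in either. Leaving out 1 vein also added calls to short counts. The coagulation list held 2 DEGs without vein 35, the glycolysis list 2 without vein 27, 632, or 633, the oxidative stress list 2 without vein 27 or 633, the Schwann cell list 2 without vein 27, and the SMC channel list 2 without vein 28 or 35. Of the lists without a DEG, 1 gene passed in the hyaluronan list without vein 28, 31, or 633, in the B cell list without vein 31, in the MHC class II list without vein 31 or 633, in the PDGF, FGF, and VEGF list without vein 28 or 632, and in the epithelial list without vein 27. In limma voom with sample weights, SMC contractile genes had 9 DEGs, pan-endothelial genes 5, and basement membrane and TGF-β and BMP genes 3 each. The matricellular, elastic fiber, tendon and cartilage, macrophage, and chemokine lists held 1 each. None passed in the fibrillar collagen, other interstitial collagen, collagen processing, protease, small leucine-rich proteoglycan, osteopontin macrophage, neutrophil, T cell, or interleukin and TNF lists. DESeq2 called more genes in most matrix lists, with 6 fibrillar collagen, 5 elastic fiber, 7 collagen processing, 9 protease, and 2 hyaluronan DEGs. Chemokine genes had 7 there. With the 3 better detected veins, collagen processing genes had 6 DEGs, macrophage and flow genes 4 each, and PDGF, FGF, and VEGF genes 3. Fibrillar collagen genes had 1 and proteases 5 in that fit.

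Few genes were called between late and mid AVFs, and more between late and early AVFs. Across all tested genes, late minus mid AVFs (day 10) gave 0 DEGs by edgeR and 1 by DESeq2. Late minus early AVFs (day 3) gave 381 by edgeR and 733 by DESeq2. By edgeR, 39 of the 12673 genes had an unadjusted *p* below 0.05 for late minus mid AVFs. That is fewer than the threshold itself passes when no gene differs. All groups, the veins included, shared 1 estimate of the spread, so the 0 cannot show that late and mid AVFs were alike. These comparisons share the late AVFs with the one above. Among the named genes, contractile *Myh11* was higher in late than in early AVFs (61.4 ± 24.0 CPM early, 168 ± 49.5 mid, and 293 ± 25.05 late, mean ± SD, n = 8, 5, and 5; log2 difference 2.25, SE 0.27, adjusted *p* = 2.71e-05), still below the veins. *Gucy1a1* (1.88, SE 0.34, adjusted *p* = 0.00241), *Gsn* (2.21, SE 0.25, adjusted *p* = 1.57e-05), *Dcn* (1.51, SE 0.33, adjusted *p* = 0.00529), *Fmo2* (1.56, SE 0.28, adjusted *p* = 0.00241), and *Vwf* (1.43, SE 0.25, adjusted *p* = 0.00228) were likewise higher late than early while lower late than in veins, and *Dcn* alone among them was not a DEG against veins. *Acta2* differed by 0.63, SE 0.23, adjusted *p* = 0.115. *Eln* (1.99, SE 0.43, adjusted *p* = 0.00518), *Col4a1* (1.63, SE 0.23, adjusted *p* = 0.000351), and *Prelp* (2.56, SE 0.45, adjusted *p* = 0.00231) were above both. *Timp1* (−2.42, SE 0.44, adjusted *p* = 0.00241) and *Ccl3* (−3.19, SE 0.73, adjusted *p* = 0.00965) were lower late than early and above the veins. *Il1r2* (−3.21, SE 0.63, adjusted *p* = 0.00354) and the globins *Hbb-bs* (−2.88, SE 0.68, adjusted *p* = 0.00853) and *Hbb-bt* (−2.84, SE 0.64, adjusted *p* = 0.00672) were below both. *Gas6*, a ligand of efferocytosis receptors, measured 179.7 ± 122 CPM early and 1335 ± 306 late (2.89, SE 0.43, adjusted *p* = 0.000542) and did not differ detectably between late AVFs and veins (872 ± 411 CPM; adjusted *p* = 0.42).

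The late change was compared between the sexes in 1 model. The interaction of sex and group passed an adjusted *p* of 0.05 in 4 genes by edgeR, among 940 at an unadjusted *p* under 0.05, and the design held 2 male veins and 2 male late AVFs. *Fbxo10*, *Dll4*, and *Farp2* had 0 counts in all 5 female veins and means of 26.9, 23.7, and 30.3 CPM in male veins, against 19.99, 8.57, and 10.5 CPM in female and 15.6, 6.78, and 6.38 CPM in male late AVFs. *A530064D06Rik* was the remaining gene. The number was 597 without vein 633, 166 without vein 27, and 0 without late AVF 23 or 24. Leaving out vein 633 or late AVF 23 or 24 left 1 male library in its group, which was then assumed to vary like the other groups.

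Single-cell libraries gave a second readout without replicates. The study used other mice for them than for bulk, and took the late pool at a later mean day than the bulk late AVFs. Each was 1 pool of 10 vessels, and 6319 barcodes of the contralateral pool and 5821 of the late pool were kept, with median counts of unique molecular identifiers (UMIs) per barcode of 2751 and 15425 and 6 kept barcodes shared. Summed over kept barcodes, 69.0% of the 281 bulk rises with UMIs in both pools were higher in the late pool (median log2 ratio 0.86) and 36.1% of the 357 bulk falls (median −0.26), where 35.4% of all 12226 tested genes were higher (median −0.23). The bulk falls thus had nearly the share of all genes. Contractile SMC genes went the other way from bulk, at 889 UMI CPM (878 to 899) in the contralateral pool and 4332 (4319 to 4345) in the late pool, with intervals that cover counting error only. *Acta2* measured 182 UMI CPM (95% interval 178 to 187) in the contralateral pool and 1574 (1566 to 1582) in the late pool. Pan-endothelial genes had the direction of bulk, at 1389 UMI CPM (1375 to 1402) in the contralateral pool and 129 (127 to 131) in the late pool. Matricellular genes measured 6975 UMI CPM (6945 to 7006) in the contralateral pool and 12586 (12564 to 12608) in the late pool, and tendon and cartilage genes 214 UMI CPM (209 to 219) in the contralateral pool and 719 (714 to 725) in the late pool. Not every list with rises in bulk was higher in the late pool. In the contralateral and late pools, fibrillar collagen genes summed to 24515 and 22761 UMI CPM, though 8 of 10 were higher late. Neutrophil genes (643.9 and 644.2) and skeletal muscle genes (5.65 and 5.66) were level, and Schwann cell genes were lower late (2670 and 374). Erythroid and platelet genes made up a large part of the contralateral pool, at 111129 UMI CPM (111008 to 111250) in the contralateral pool and 549 (545 to 554) in the late pool. The pools also differed in depth and in red cell transcripts, whose part in these ratios was not tested.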

How the data were processed

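Bulk libraries were made from poly(A) RNA of single vessels with an ultra-low-input protocol and sequenced as paired ends. For these 25 libraries the authors deposited counts per gene, whole numbers without normalization, for 56980 genes. For the 3 single-cell pools they deposited UMI counts per gene and barcode (Cell Ranger 6.0.2 per the file headers). The submitters' processing notes name STAR, but the counter and annotation of the bulk table and whether strand was used were not given in the sources used here, so genes that overlap or lie antisense cannot be told apart. Groups and sexes were taken from the labels. Symbols came from the single-cell feature lists (32210 genes) or the reference annotation (19962), and 4808 genes had none.

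Genes with a DESeq2-normalized mean of at least 100 over the 25 libraries were tested (12673). edgeR 4.0.16 in R 4.3.3 fitted a quasi-likelihood model with TMM scaling and a mean per group to all 25 libraries. DEGs had a Benjamini–Hochberg adjusted *p* under 0.01 over all genes tested and a log2 fold change of 1 or more in size. Each SE is the size of the log2 fold change divided by the square root of the F statistic of its quasi-likelihood test. It is thus no separate estimate of error, and it may be too small for genes with few counts in veins. Bulk CPM used each library's total over the tested genes times its TMM factor, and the floor for a gene with no count was 3 counts over the veins. Since 1 library is 1 vessel and no label says which vessels shared a mouse, *p* values measure the spread between vessels. That spread was estimated over all groups together, early and mid AVFs included, and not from the 2 compared groups alone. With only the 2 groups in the fit, 85 of the 315 rises and 148 of the 361 falls kept their call. The interaction with sex was tested at an adjusted *p* under 0.05. Alternatives were DESeq2 1.42.0, limma 3.58.1 (voom with sample weights), other filters and thresholds, and leaving libraries out. The scripts were tested on simulated counts.

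The members and the 45 gene lists were chosen with earlier results of these data known. Genes were named as the 12 largest rises and falls among DEGs without overlap between groups, with a symbol, and with a mean of at least 10 CPM in the higher group, as up to 3 DEGs with the smallest adjusted *p* in each list (or the most abundant member where none was a DEG), and as 12 markers. Other list members were named after their values were seen. Some genes are not reported here and were left out of their lists. Transcript lengths were those of the longest GENCODE M21 transcript. Single-cell barcodes were summed per pool if they held between 200 and 6000 genes and no more than 10% mitochondrial UMIs, doublets were not removed, and no test was made. Intervals are exact Poisson intervals and cover counting error only. Promoters were read from RefSeq.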

Additional observations from a re-analysis of the deposited data

Results flagged for a closer look

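Within each group of 5 or 7 libraries, the gap between the extreme library and its nearest neighbor was compared with the range of the group on the log2(CPM + 1) scale (Dixon's criterion), for the 114 named genes. It was exceeded in 35 of 228 sets of values, where chance alone gives about 1 in 20 for normally distributed values. The 228 include sets with 0 counts in every vein, which have no range and could not be tested. Many of the genes are at or near 0 in veins, where 1 library with a few counts stands apart. Values in parentheses are CPM. Contralateral vein 27 was the highest of its group for *Birc5* (8.11), *Cxcl3* (0.395), *Cxcl5* (4.03), *Klhl41* (0.0791), *Krt18* (112), *Mybpc1* (0.316), *Myoz1* (0.119), *Pappa* (0.237), *Syt4* (0.198), and *Wif1* (0.158). Contralateral vein 28 was the highest of its group for *Pth* (10.8) and *Xirp2* (0.0625). Contralateral vein 28 was the lowest of its group for *Cd44* (0.875), *Mmp14* (5.56), and *Ptprc* (0.687). Contralateral vein 31 was the highest of its group for *Cd4* (0.0876). Contralateral vein 31 was the lowest of its group for *Lox* (19.0) and *Pdgfrb* (2.01). Contralateral vein 34 was the highest of its group for *Cd3g* (1.31), *Gal* (0.0907), and *Prph* (0.227). Contralateral vein 35 was the lowest of its group for *Pcolce2* (119). Contralateral vein 632 was the highest of its group for *Mmp12* (25.3) and *Rgs1* (0.0783). Contralateral vein 633 was the highest of its group for *Cxcr2* (1.72), *Gap43* (1.31), *Mag* (0.931), *Ngp* (0.0690), and *P4ha3* (2.72). Contralateral vein 633 was the lowest of its group for *Pfkp* (234). Late AVF 16 was the highest of its group for *Pfkp* (212). Late AVF 17 was the lowest of its group for *P4ha3* (32.4). Late AVF 19 was the highest of its group for *Pth* (5313). Late AVF 23 was the highest of its group for *Myh11* (338). Late AVF 24 was the highest of its group for *Mki67* (48.4). 

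The difference between late and early AVFs passed the threshold for DEGs in 15 named genes, as a log2 fold change of late minus early AVFs. It was positive for *Col4a1* (1.63), *Dcn* (1.51), *Eln* (1.99), *Fmo2* (1.56), *Gas6* (2.89), *Gsn* (2.21), *Gucy1a1* (1.88), *Myh11* (2.25), *Prelp* (2.56), and *Vwf* (1.43) and negative for *Ccl3* (−3.19), *Hbb-bs* (−2.88), *Hbb-bt* (−2.84), *Il1r2* (−3.21), and *Timp1* (−2.42). The late change differed between the sexes in 4 genes by edgeR's interaction test, as the log2 change in males minus that in females, for *Fbxo10* (−13.02), *Dll4* (−12.82), *Farp2* (−13.56), and *A530064D06Rik* (−8.82). The first 3 had 0 counts in all female veins, so these values depend on the prior count of the fit and are not bounds.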

How the results depend on the processing

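The 676 DEGs (315 higher and 361 lower) became 1278 with DESeq2 (579 and 699), 1304 at an adjusted *p* under 0.05 (582 and 722), 279 with the 2 groups alone in the fit (95 and 184), and 204 in females alone (128 and 76). With sample weights in limma voom, which gave veins weights of 0.0299 to 0.587 and late AVFs 1.89 to 8.28, there were 200 (42 and 158), among them 20 of the 315 rises and 127 of the 361 falls, and the median log2 fold change of all genes was 0.34 against −0.09. With edgeR's filterByExpr there were 2696, of which 2209 (81.9%) were higher, and with no filter 2567, of which 2202 (85.8%) were higher, where 46.6% of the 676 were. DESeq2 size factors gave 663 and a sex term 626. Among settings chosen after seeing the data, veins 27, 35, and 633 alone gave 1083 (625 higher), leaving out late AVFs 16, 19, and 23 gave 146 (115 and 31), and leaving out late AVFs 16 and 24 gave 255 (173 and 82). Leaving out 1 library gave 424 to 886 DEGs, 229 to 454 higher and 187 to 432 lower. Without late AVF 17, 19, or 24 there were 438, 424, and 450, of which 187, 194, and 198 were lower. The 4 genes with a sex interaction became 325 with DESeq2 and 0 to 597 without 1 library. The cause was not tested in any of these.

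Log2 fold changes that were not called turned sign for *Fos* (0.37 with limma voom, 1.74 in females, and −0.89 to 0.67 without 1 library), *Krt18* (0.77 with limma voom, and −3.01 to 3.78 without 1 library), *Cox7a1* (−0.82 in females, −0.71 to 1.04 without 1 library, −2.46 without late AVFs 16, 19, and 23), *Pth* (−1.57 to 11.62 without 1 library, −1.81 without late AVFs 16, 19, and 23), and *Ifit3* (0.15 with limma voom, 0.0375 in females, −0.32 to 0.40 without 1 library, 0.0630 with veins 27, 35, and 633, 0.29 without late AVFs 16, 19, and 23). No called gene among those named turned sign in any setting run. No paired analysis was possible because the labels of the 2 groups share no replicate number.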

Other observations

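Further gene families were looked up after the values were seen, so their counts describe them and cannot test them. Of all tested genes, 2.85% fell and 2.49% rose. Of 80 tested subunits of the mitochondrial respiratory chain, which makes ATP, 13 fell and none rose, and 76 log2 fold changes were negative (median −0.88). Their median transcript was 1003 bases long, against 3430 for all tested genes. Of 16 glutathione S-transferases, enzymes that conjugate reactive compounds, 6 fell (median −1.56). Of 14 genes of fatty acid synthesis and storage, 6 fell (*Me1*, *Elovl6*, *Acaca*, *Fasn*, *Dgat2*, and *Thrsp*; median −2.13). Of 10 serine/arginine-rich splicing factors, 4 fell (median −1.01). Among 7 genes of caveolae, the membrane pits of ECs, SMCs, and adipocytes, *Cav1*, *Cav2*, *Cavin1*, and *Cavin2* fell and the muscle gene *Cavin4* rose (median −1.05).

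Of 8 genes of migratory dendritic cells and the T cell zone, 4 rose (*Ccr7*, *Ccl17*, *Ccl22*, and *Fscn1*; median 2.62) and none fell. *Cd86*, *Cd40*, and *Cd274* were not called, nor was *Ccl19*, whose log2 fold change was negative (−0.85, adjusted *p* = 0.228). Of 8 genes of developing skeletal muscle 7 rose (median 7.75). Levels varied among late AVFs, at 0 to 18.9 CPM for *Myog*, 0 to 15.8 CPM for *Myh3*, and 0.0952 to 20.6 CPM for *Cavin4*. DEGs of these families were not counted without the late AVFs that carried muscle transcripts. *Rapsn*, which clusters acetylcholine receptors, measured 3.01 to 8.73 CPM in late AVFs and at most 0.0701 CPM in veins. *Rapsn*, *Tnni1*, and *Chrna1* were higher in every late AVF than in any vein, and the other 4 overlapped.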
